A study of Mus musculus with 12 samples.

Results

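Chemokines of the CXC and CX3C families and the receptors that bind CXC chemokines were examined in ribosome-bound and total RNA of mouse white matter. The group held 7 genes of the 24060 listed in the deposited table, taken by gene symbol: the ligands Cx3cl1, Cxcl14, Cxcl12, Cxcl16 and Cxcl5 and the receptors Cxcr4 and Cxcr2. Cxcl5 stands in the group because the study selected it for its level in these samples, so its values are given as a description, with no test. The other members were listed with earlier results of these data known.

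The mice were male and carried Tie2-Cre together with a floxed Rpl22 allele that yields the ribosomal protein with a hemagglutinin (HA) tag after recombination, in every group. A pulldown with anti-HA (IP) therefore collects ribosomes from cells with a history of Tie2 promoter activity, which include endothelial cells and also part of the blood lineage. Of 6 animals, 489, 555 and 556 ate control-fat chow with 10% of its kcal as fat (CFD) and 516, 517 and 676 ate high-fat chow with 60% (HFD), and each gave 1 IP and 1 input library of white matter, that is 12 libraries in 4 groups of 3. The age of these animals and the length of feeding are not given in the sources used here.

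Chemokines are small secreted proteins that guide cells by binding receptors coupled to inhibitory G proteins, and they are classed by the spacing of the first cysteines of the mature protein. Cx3cl1 and Cxcl16 differ from the other ligands in being made as membrane proteins whose chemokine domain is carried on a stalk and can be shed by the proteases Adam10 and Adam17. In brain, Cx3cl1 is known as a product of neurons that binds Cx3cr1 on microglia, Cxcl12 as a ligand of Cxcr4 and of the scavenger receptor Ackr3, and Cxcl5 as a ligand of Cxcr2, the receptor that draws neutrophils.

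The cysteine spacing that names the families can be read from the coding sequence. For each ligand, the stretch around the first cysteines is given from the RefSeq annotation of GRCm38 (mm10), 5′ to 3′ on the coding strand, with the 2 cysteine codons in capitals. They lie at chr5:90759709-90759753 (plus strand) for Cxcl5, chr6:117171490-117171534 (plus strand) for Cxcl12, chr13:56295897-56296119 (minus strand, spliced from 2 exons) for Cxcl14, chr11:70459109-70459153 (minus strand) for Cxcl16 and chr8:94778033-94778083 (plus strand) for Cx3cl1.
Cxcl5: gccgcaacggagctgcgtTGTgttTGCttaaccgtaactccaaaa
Cxcl12: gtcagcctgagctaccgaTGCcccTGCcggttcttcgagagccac
Cxcl14: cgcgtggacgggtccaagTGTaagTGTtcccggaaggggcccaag
Cxcl16: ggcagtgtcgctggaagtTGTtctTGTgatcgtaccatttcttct
Cx3cl1: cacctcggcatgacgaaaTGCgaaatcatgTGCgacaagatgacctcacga
In the 4 CXC ligands 1 codon separates the cysteines, and in Cx3cl1 there are 3. Among these ligands the codons for glutamate, leucine and arginine stood directly before the first cysteine in Cxcl5 alone, the ELR arrangement known from CXC chemokines that bind Cxcr2.

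Library totals ranged from 19567186 to 33660708 counts, and the 45S ribosomal RNA precursor Rn45s took 38.7% to 42.3% of the counts in CFD IP, 17.1% to 19.1% in HFD IP and 6.34% to 14.2% in the inputs. The tissue and pulldown labels were checked against marker genes, summed in CPM, the usual unit of counts over library size, here after scaling by TMM. The summed level of 8 endothelial markers, each with an entry, ranged from 14.2 to 44.5 CPM in the inputs, from 10.6 to 230.3 CPM in CFD IP and from 9.26 to 33.8 CPM in HFD IP, so that the pulldown of animal 556 lay above every input, that of animal 517 within the range of the inputs, and the other 4 below every input. The 6 neuron markers summed to 7488 to 12060 CPM in CFD input, 4611 to 8369 CPM in CFD IP, 7118 to 9838 CPM in HFD input and 8004 to 9343 CPM in HFD IP. A level in IP is therefore given as a level in the pulldown, not in endothelial cells.

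The chemokine group was dominated by a single ligand. On a scale per gene length (RPKM, CPM divided by the gene length in kilobases), the mean level of Cx3cl1 was 67.5 in CFD input, 85.4 in CFD IP, 53.9 in HFD input and 103.9 in HFD IP, and Cx3cl1 made up 78.0% to 90.6% of the summed RPKM of the 7 genes in each library. Cxcl14 followed with mean levels of 9.35, 14.0, 6.15 and 7.49 RPKM in the same order of groups. In all 4 groups the lowest Cx3cl1 library lay above the highest library of any other member. Cxcl14 lay above every remaining member in the same way in 3 groups, and in HFD IP it overlapped Cxcl5.

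Below these came genes with low or uneven counts, each of which overlapped with the next in the order in every group. Cxcl12 had mean levels of 0.670, 0.499, 1.93 and 1.17 RPKM in CFD input, CFD IP, HFD input and HFD IP, and Cxcl16 of 0.166, 0.0840, 0.726 and 0.158 RPKM. Cxcr4 was at 0 in CFD input and had mean levels of 0.124 RPKM in CFD IP, 0.482 RPKM in HFD input and 0.213 RPKM in HFD IP. Cxcl5 was at 0 in CFD IP and reached a mean of 7.36 RPKM in HFD IP.

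**Figure D1:**
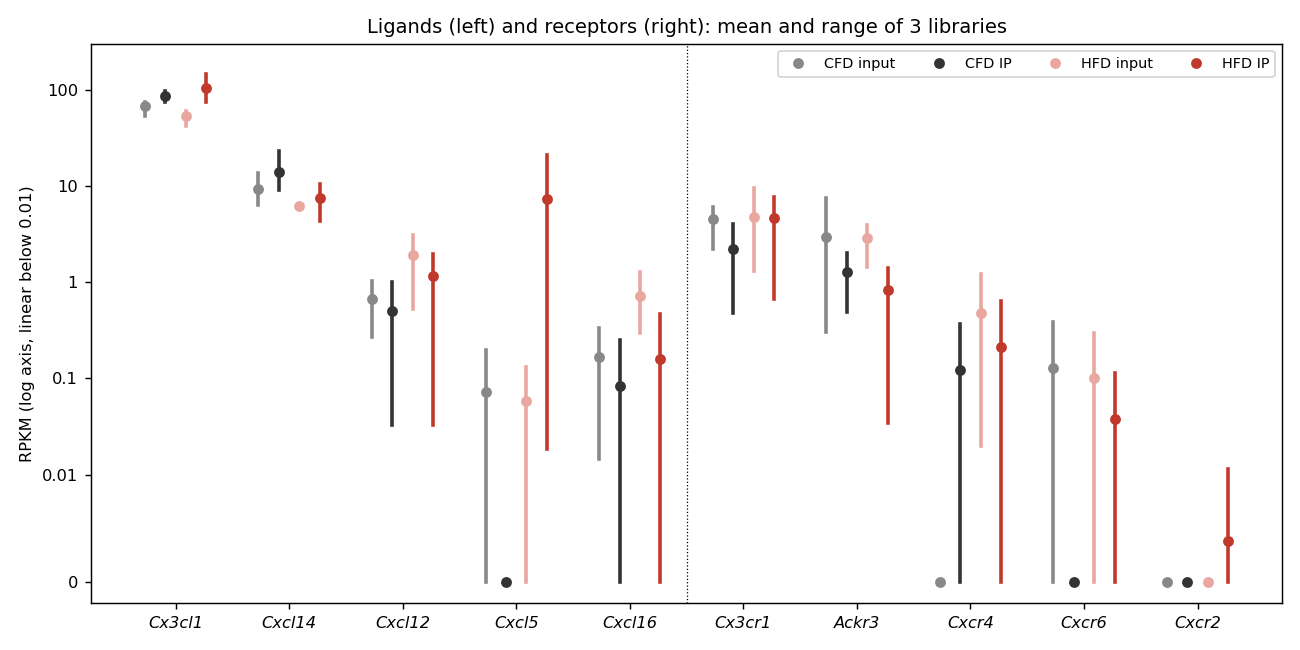
Mean (points) and range (lines) of the level in RPKM, on a log axis that is linear below 0.01, for 5 ligands and 5 receptors in the 4 groups of 3 libraries. Cx3cl1 lies above the other members in all groups, and among the receptors Cx3cr1 and Ackr3 lie above Cxcr4, Cxcr6 and Cxcr2 by their means.

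Cx3cl1 (fractalkine; chromosome 8, 94772180 to 94782427, plus strand, GRCm38) had at least 4570 counts in every library. In CPM, the inputs of CFD animals 489, 555 and 556 stood at 238, 167.5 and 230.9 and their IP libraries at 236.4, 305.3 and 263.4. For HFD animals 516, 517 and 676 the inputs stood at 132.1, 188.6 and 187.8 CPM and the IP libraries at 232.8, 462.4 and 284.1 CPM. The IP of animal 517 was the highest of all 12 libraries, and the groups of the 2 diets overlapped in both fractions. A gene on the opposite strand, Gm51543, overlaps Cx3cl1 and has no entry in the table, and use of strand in counting is not stated.

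Within an animal, the pulldown exceeded the input for Cx3cl1 in 5 of 6 mice. The log2 of IP CPM over input CPM, here and for other genes with a prior count of 2 added, was -0.01, 0.87 and 0.19 in CFD animals 489, 555 and 556, and 0.82, 1.29 and 0.60 in HFD animals 516, 517 and 676. In edgeR's quasi-likelihood test across 14354 genes, HFD IP against HFD input had a log2 fold change of 0.95 (SE 0.323), with a 95% interval from 0.31 to 1.58, an unadjusted p of 0.00771 and, after adjustment, an adjusted p of 0.585. This did not pass the adjusted threshold of 0.1, nor did DESeq2, with an adjusted p of 0.261, and without animal 517 the log2 fold change was 0.69 with an unadjusted edgeR p of 0.106. The part of neuron markers, whose summed levels in HFD are given above, in this difference was not tested.

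For the other comparisons of Cx3cl1 the intervals were the narrowest of the group and included 0. In CFD, IP against input had an edgeR log2 fold change of 0.34 (SE 0.320), with a 95% interval from -0.29 to 0.97. Between diets, HFD IP against CFD IP was at 0.28 (SE 0.320), from -0.34 to 0.91, and HFD input against CFD input at -0.32 (SE 0.320), from -0.95 to 0.30. Leaving out 1 animal moved the value in CFD to 0.10 without animal 555, that between pulldowns to -0.05 without animal 517 and that between inputs to -0.17 without animal 516. The interaction of diet and fraction, which asks whether IP over input differed between diets, was 0.61 (SE 0.453), at an edgeR adjusted p of 0.906, or 0.35 without animal 517, so a difference between diets in this ratio was not shown.

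**Figure D2:**
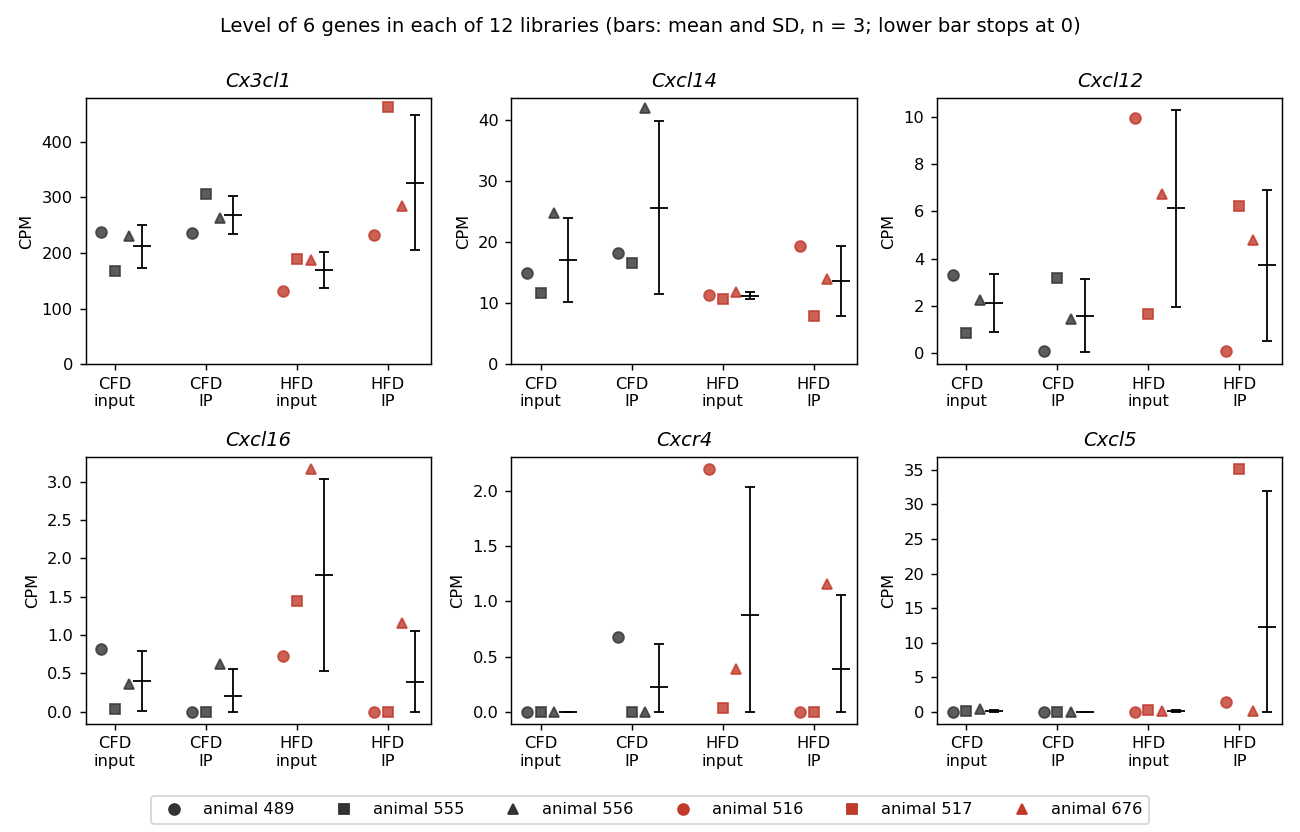
Level in CPM of 6 member genes in each of 12 libraries, with points for single animals and bars for the mean and SD of 3 libraries per group. Cx3cl1 and Cxcl14 have counts in all libraries, while the HFD IP mean of Cxcl5 rests on animal 517 and that of Cxcl16 and of Cxcr4 on animal 676.

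Cxcl14 (chromosome 13, 56288643 to 56296811, minus strand), a chemokine made by many epithelia and by brain cells, was the second most abundant member. Its level in the CFD inputs of animals 489, 555 and 556 was 14.9, 11.6 and 24.8 CPM and in their IP libraries 18.2, 16.6 and 41.9 CPM. In HFD animals 516, 517 and 676 the inputs were at 11.3, 10.6 and 11.7 CPM and the IP libraries at 19.3, 7.83 and 14.0 CPM. Animal 556 was the highest in both CFD fractions, and the 3 HFD inputs lay closest together, with a coefficient of variation of 4.87%.

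The diets overlapped for Cxcl14 in both fractions. HFD IP against CFD IP had an edgeR log2 fold change of -0.90 (SE 0.835), with a 95% interval from -2.54 to 0.74 and an adjusted p of 0.700, and HFD input against CFD input had -0.61 (SE 0.832). Without animal 556 these were -0.34 and -0.24. Relative to input, the log2 IP ratio was above 0 in all 3 CFD animals, at 0.29, 0.52 and 0.76, and in HFD it was 0.76, -0.44 and 0.25. In the HFD pulldown of animal 517, Cxcl14 was at 4.28 RPKM, below the 21.2 RPKM of Cxcl5 in the same library.

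Cxcl12 (chromosome 6, 117168535 to 117181368, plus strand), the chemokine that retains progenitors and lymphocytes through Cxcr4, was detected in all 12 libraries at very unequal levels. The CFD inputs of animals 489, 555 and 556 held 77, 24 and 61 counts and their IP libraries 2, 66 and 26. The HFD inputs of animals 516, 517 and 676 held 358, 46 and 190 counts and the IP libraries 3, 189 and 157. In each diet 1 pulldown, that of animal 489 or 516, was at or under 3 counts although the input of the same animal was the highest of its group.

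As a result the pulldown ratio of Cxcl12 had no common direction. On the log2 scale it was -4.24, 1.83 and -0.59 in CFD animals 489, 555 and 556 and -5.81, 1.86 and -0.49 in HFD animals 516, 517 and 676. The edgeR log2 fold change of HFD input against CFD input was 1.53 (SE 1.77), with a 95% interval from -1.94 to 4.99, and that of HFD IP against CFD IP was 1.23 (SE 1.76), from -2.22 to 4.67. Both intervals span changes in either direction. Leaving out 1 animal at a time gave values from 0.97 to 1.97 for the inputs and, for IP, from 0.63 without animal 517 to 2.23 without animal 555.

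Cxcl16 (chromosome 11, 70454389 to 70459984, minus strand), the membrane-bound ligand of Cxcr6, was found mainly in input. Counts were 19, 1 and 10 in the CFD inputs of animals 489, 555 and 556, and 26, 40 and 89 in HFD animals 516, 517 and 676. In IP they were 0, 0 and 11 in CFD and 0, 0 and 38 in HFD, in the same order of animals. All 3 HFD animals had a lower level in IP than in input, at log2 ratios of -3.41, -4.35 and -1.39, of which the first 2 rest on 0 counts in IP and so depend on the prior count.

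No test of Cxcl16 passed. HFD IP against HFD input had a fitted log2 change of -2.19 (SE 2.63), at an adjusted p of 0.967 in edgeR. That value was -7.82 without animal 676 and -5.28 with the animal as a replicate block. HFD input against CFD input had an edgeR log2 fold change of 2.12 (SE 2.63), with a 95% interval from -3.02 to 7.27, or 1.41 without animal 676. Cxcl16 overlaps Zmynd15 on the opposite strand, which had 421 counts in the CFD input of animal 555, where Cxcl16 had 1, and at most 22 in any other library. Reads of the overlapping parts cannot be assigned with certainty, since use of strand is not stated.

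Cxcl5 (chromosome 5, 90759298 to 90761625, plus strand), the neutrophil-attracting ligand of Cxcr2, was nearly absent from input. The CFD inputs of animals 489, 555 and 556 held 0, 1 and 9 counts and the HFD inputs of animals 516, 517 and 676 held 0, 6 and 2. The 3 CFD pulldowns held 0 counts. In the HFD pulldowns the level was 1.46 CPM in animal 516, 35.1 CPM in animal 517 and 0.0305 CPM in animal 676, and the values of the 2 diets did not overlap, although the last of these is 1 count against 0. Among all genes 5.94% were higher in HFD IP in this way, and nothing is read from this for a gene selected on it.

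The white matter from which the pulldown of animal 517 was made gave 6 counts of Cxcl5 in input, a 95% Poisson interval of 2.20 to 13.1 counts, beside 1062 counts in IP. For animal 516 the pair was 0 and 42 counts, and for animal 676 it was 2 and 1. The input of animal 517 was thus not set apart from the CFD input of animal 556, at 9 counts with an interval of 4.12 to 17.1. Such intervals cover counting error only, since PCR copies were not told apart from separate molecules. The levels of markers of other cell types in the same libraries are given as measured. Summed over 7 markers, microglia reached 278.4 CPM in the IP of animal 517 against 79.9 to 136.6 CPM in the other 5 pulldowns, with 1 marker at 0 in the IP of animal 517. Cx3cr1, the microglial receptor of Cx3cl1, did not follow this sum. It stood at 28.6 and 21.7 CPM in the HFD pulldowns of animals 516 and 676. Only the pulldown of animal 556, at 1.79 CPM, was lower for Cx3cr1 than the 2.54 CPM in the IP of animal 517. Of the 7 neutrophil markers with an entry there were 4 at 0 in that library, with a sum of 0.231 CPM, and of 6 platelet markers there were 5 at 0, with a sum of 1.02 CPM. Markers of the oligodendrocyte lineage were also highest in that library. In the HFD pulldowns of animals 516, 517 and 676, 5 markers of oligodendrocyte progenitors summed to 220.3, 264.5 and 119.3 CPM, against 140.9 to 176.8 CPM in CFD IP. For 5 oligodendrocyte markers the sums were 6142, 6601 and 2628 CPM, against 4353 to 5725 CPM in CFD IP. The part of these levels in the Cxcl5 value was not tested.

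The receptors of the group were close to the floor of detection. Cxcr4 (chromosome 1, 128588199 to 128592299, minus strand), the receptor of Cxcl12, had 0 counts in all 3 CFD inputs while HFD animals 516, 517 and 676 had 79, 1 and 11 in input. In IP, animal 489 had 13 counts in CFD, animal 676 had 38 in HFD, and the other 4 pulldowns had 0. No animal had more than 3 counts in both fractions except animal 676.

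Between inputs, Cxcr4 was the only member whose diets did not overlap, 1 of 7 genes, and it was higher in HFD. Of all genes tested, 6.05% were higher in HFD input with no overlap. The 7 include Cxcr2, which had 0 counts in every input and so could only overlap, and Cxcl5, which the study selected. Against the 3 counts per library that a count of 0 allows, the mean HFD input level of Cxcr4, 0.875 CPM, was at least 7.63-fold higher than in CFD input. Without animal 516 it was at least 1.86-fold higher. The edgeR p of Cxcr4 was 0.0449 unadjusted and 1 adjusted, and without animal 516 it was 0.116 unadjusted. The value of animal 517, 1 count, cannot be separated from 0 at this depth.

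Cxcr2 (chromosome 1, 74153994 to 74161246, plus strand), the receptor of Cxcl5, had 1 count, in the HFD pulldown of animal 516, among 318627436 counts of all 12 libraries. The 95% Poisson interval was 0.0253 to 5.57 counts, and the gene had too few counts to be tested. The related receptors Cxcr1 and Cxcr3 had 0 counts, which allows a level of up to 0.00942 CPM of the pooled libraries. The summed level of 7 markers of neutrophils, the cells best known for Cxcr2, ranged from 0 to 3.48 CPM over the libraries, with the highest value in the CFD pulldown of animal 555. In bulk samples fewer cells of a type and less RNA per cell cannot be told apart.

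Counts sufficed for a test in 6 of the 7 members. Cxcl5 is left out of the counts here, since it was selected on the pulldowns of the diets and passed the filter on low counts mainly through the HFD pulldown. Between HFD IP and CFD IP, 0 of the other 5 members were called by edgeR at an adjusted p under 0.1, beside 0.0557% of all genes tested, with 0 at an unadjusted p under 0.05 beside 10.9% of all genes. Between CFD IP and CFD input 0 of 5 were called beside 0.188%, again with 0 at an unadjusted p under 0.05 beside 11.8%. Between HFD IP and HFD input 0 of 5 were called beside 0.0139%, and 1, Cx3cl1, had an unadjusted p under 0.05 beside 6.51%. With so few members these counts lie near the background shares.

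The remaining comparisons gave the same picture. Between the inputs of the diets 0 of 5 were called beside 0.0% of all genes, and 1, Cxcr4, had an unadjusted p under 0.05 beside 2.03%. For the interaction 0 of 5 were called beside 0.0%, with 0 at an unadjusted p under 0.05 beside 5.36%. DESeq2 on the same counts also called 0 of these members in the 5 comparisons, in which it called 5.28%, 5.88%, 0.478%, 0.225% and 0.877% of the 13798 genes it gave an adjusted p, in the order above.

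**Figure D3:**
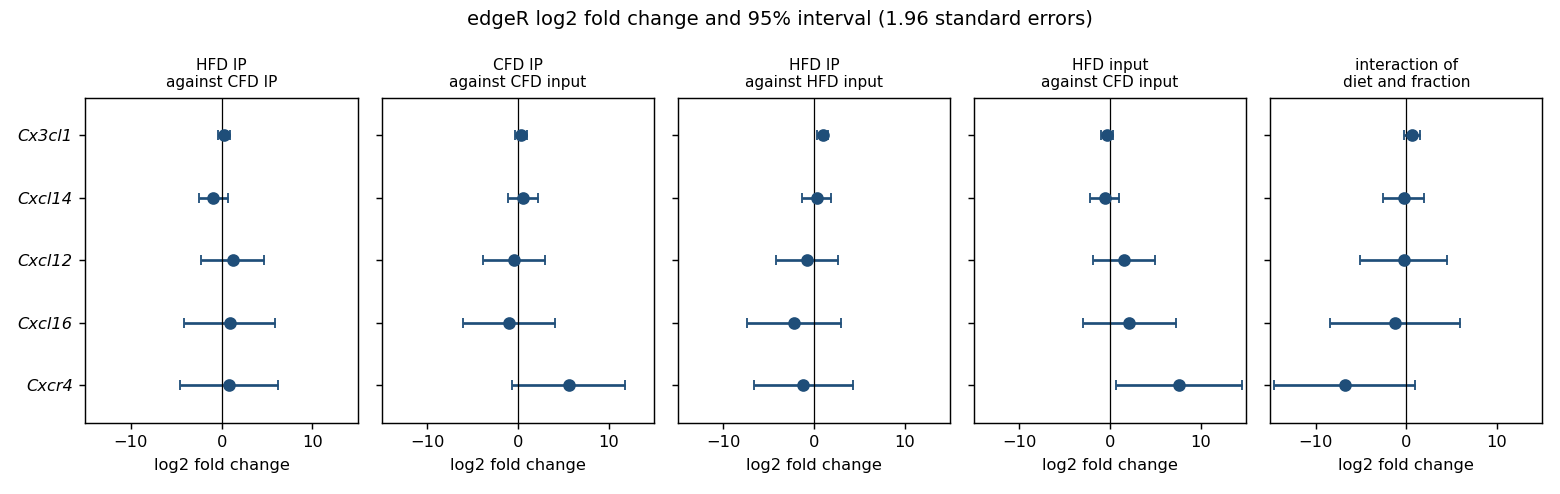
Fitted log2 fold change (points) with its 95% interval (bars) for 5 members in 5 edgeR comparisons of 12 libraries, without Cxcl5, which was selected on these samples. Intervals are narrowest for Cx3cl1, which lies above 0 for HFD IP against HFD input, and widest for Cxcr4.

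The spread between animals separated the abundant members from the scarce ones. The gene-wise biological coefficient of variation was 32.3% for Cx3cl1, which is at percentile 2.89 of all genes tested, and 71.2% for Cxcl14, at percentile 40.4. It was 130.9% for Cxcl12, 160.7% for Cxcl5, 191.0% for Cxcl16 and 215.2% for Cxcr4, at percentiles 72.8, 82.9, 91.9 and 97.2. With Cxcl5 left out, members with a lower mean RPKM over the 12 libraries thus had less precise fold changes. Cxcl5 had a higher mean than Cxcl12, at 1.87 against 1.07 RPKM, yet a larger coefficient.

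A second measure was the share of a group's summed CPM held by its highest library. Counting each member, Cxcl5 included, in each group where it passed 3 counts, a single library held over 90% in 5 of 11 cases in IP. In input it did so in 1 of 11 cases. Among all genes the percentage over 90% was 14.1% in CFD IP, 13.3% in HFD IP, 8.94% in CFD input and 4.36% in HFD input. The 5 cases in IP were Cxcl16 in animal 556 and in animal 676, Cxcr4 in animal 489 and in animal 676, each at 100%, and Cxcl5 at 95.9% in animal 517, which the choice of Cxcl5 by the study bears on. The case in input was also Cxcl5, at 90.3% in CFD animal 556, on 9 counts. The Cxcl5 cases are given as a description and are not read against the percentages of all genes.

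For the abundant members the shares were low. Cx3cl1 had 37.4% and 37.9% in CFD input and CFD IP and 37.1% and 47.2% in HFD input and HFD IP. Cxcl14 ranged from 34.8% to 54.6% and Cxcl12 from 51.8% to 67.1% over the 4 groups. Over all genes the median share was 51.1% in CFD input, 57.0% in CFD IP, 46.7% in HFD input and 56.3% in HFD IP, so that Cx3cl1 was more even than the median gene in every group.

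**Figure D4:**
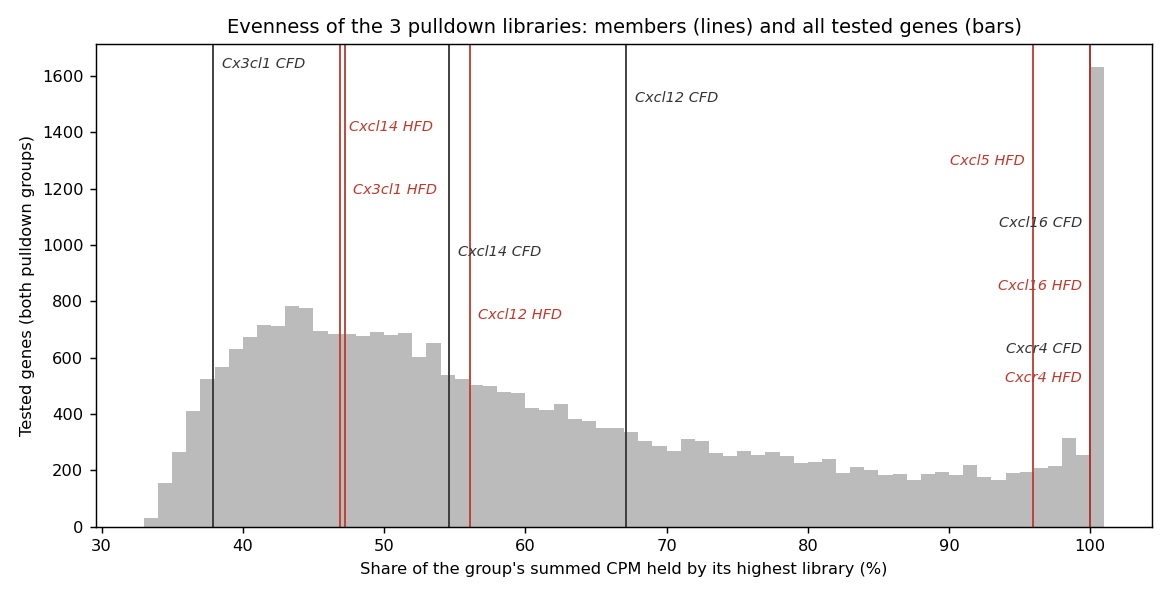
Share (%) of a group's summed CPM held by its highest library, for tested genes of both pulldown groups (bars, number of genes) and for members (lines, with the diet). Cx3cl1 lies at 37.9% and 47.2%, while Cxcl5 in HFD and Cxcl16 and Cxcr4 in both diets lie at 95.9% to 100%.

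Genes whose levels followed those of a member most closely were found by Pearson's r of log2 CPM over the 12 libraries, which come from 6 animals and share depth and dissection. For Cx3cl1 these were App, the amyloid precursor protein (r = 0.917), Rtn1, a neuronal endoplasmic reticulum protein (0.892), and Sort1, a sorting receptor (0.882), all with their highest count in the HFD pulldown of animal 517. For Cxcl5 they were Ly6g6f (0.901), Notch1 (0.859) and Tktl2 (0.857), also highest in that library. For Cxcl14 they were Prmt5 (0.891), Nf2 (0.862) and Hmgn5 (0.854), all highest in the CFD pulldown of animal 556.

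Cxcr4 and Cxcl16 were matched to genes that peaked in the same input as they did. Cxcr4 was at or under 3 counts in 8 of the 12 libraries and Cxcl16 in 5, so few libraries set their r values. For Cxcr4 these were A730036I17Rik (r = 0.980), Neurog2 (0.955) and 4931423N10Rik (0.942), all highest in the HFD input of animal 516, and for Cxcl16 they were 3010001F23Rik (0.941), F630111L10Rik (0.923) and Rbpms2 (0.921), highest in the HFD input of animal 676. Cxcl12 was followed by Pwwp2b (0.922), Mrpl39 (0.920) and Tmem242 (0.901), which peaked in 3 different libraries. Between members other than Cxcl5, r ran from -0.41 for Cxcl16 and Cx3cl1 to 0.55 for Cxcl12 and Cxcl16. The r of 0.58 for Cxcl5 and Cx3cl1 is not read, since the study selected Cxcl5 on these samples. Both of these genes peaked in the HFD pulldown of animal 517, at 1062 and 13999 counts.

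Partners of the members were then read from lists of the pathway. Of 11 other CXC ligands none had enough counts to be tested. Cxcl17 had 77 counts in the HFD pulldown of animal 676 and 6 in its input and 0 elsewhere, and Pf4, platelet factor 4, had at most 13 counts, in the same pulldown. Cxcl1, Cxcl13 and Cxcl15 had 0 counts in all 12 libraries.

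Of 7 other receptors 4 were tested and 0 were called by edgeR or DESeq2 in any comparison, with 0 at an unadjusted p under 0.05. Cx3cr1, the microglial receptor of Cx3cl1, had mean levels of 4.53 ± 2.06 RPKM in CFD input, 2.24 ± 1.76 in CFD IP, 4.82 ± 4.32 in HFD input and 4.69 ± 3.59 in HFD IP (SD, n = 3 each). The ligand exceeded it in mean RPKM by 14.9, 38.1, 11.2 and 22.1 times in the same order. Ackr3, the scavenger of Cxcl12, had mean levels of 2.93, 1.29, 2.90 and 0.841 RPKM. Its log2 ratio of IP to input was -2.41, 0.89 and 0.64 in CFD animals 489, 555 and 556. In HFD animals 516, 517 and 676 the Ackr3 ratio was -5.57, -0.045 and -1.81, the first on 2 counts in IP and the second close to level. HFD IP against HFD input had an edgeR adjusted p of 0.951 for Ackr3.

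Ackr1, a decoy receptor known from venous endothelium and red cells, was the receptor with the highest level. It stood at 32.4, 17.4 and 28.7 CPM in the CFD pulldowns of animals 489, 555 and 556 and at 42.1, 48.3 and 38.2 CPM in the HFD pulldowns of animals 516, 517 and 676. The diets did not overlap in IP, as for 5.94% of all genes in this direction, and the edgeR log2 fold change of 0.71 (SE 0.629) had an adjusted p of 0.684. The gene overlaps Cadm3 on the same strand, which had 3128 to 9576 counts per library, so counts of Ackr1 are uncertain.

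Signalling genes downstream of these receptors spanned a wide range of levels, with a mean over 12 libraries from 288.6 RPKM for Gnb1 to 0 counts for Rgs1. Of 25 genes listed 23 were tested, and 1 was called by edgeR, Adrbk1 (Grk2), the kinase that desensitizes G-protein-coupled receptors, in CFD IP against CFD input. Its level was 69.7 ± 4.61 CPM in CFD input against 281.3 ± 84.5 CPM in the pulldown (SD, n = 3 each), and the edgeR log2 fold change of 2.01 (SE 0.381) had an adjusted p of 0.0589, beside 0.174% of all genes called as higher in this comparison. The call was lost without animal 489, 555 or 556, one at a time. In HFD the level was 86.2 ± 25.6 CPM in input and 116.0 ± 36.7 CPM in IP (SD, n = 3 each), and the edgeR p of the interaction was 0.00614 unadjusted and 0.829 adjusted.

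Gnai2, an inhibitory G-protein subunit through which chemokine receptors signal, separated the diets in IP. It stood at 280.1, 393.2 and 387.9 CPM in the CFD pulldowns of animals 489, 555 and 556 and at 137.9, 147.2 and 83.7 CPM in the HFD pulldowns of animals 516, 517 and 676. Of all genes tested, 4.66% were lower in HFD IP with no overlap, as were Adrbk1, Grk6 and Ptk2b of this list. For Gnai2 the edgeR log2 fold change was -1.53 (SE 0.351) and missed the threshold, at an adjusted p of 0.229. The call depended on the fit. The adjusted p was 0.0189 in edgeR with no filter on low counts, which called 1.2% of all genes, and 0.00247 in DESeq2, which called 5.28%. In this comparison DESeq2 also called Adrbk1 and Rac2 as lower, at adjusted p of 0.0296 and 0.0266. Gnai3, a sister subunit of Gnai2, did not overlap between the diets in IP and was higher in HFD, as for 5.94% of all genes. It stood at 24.9 to 39.6 CPM against 11.2 to 21.8 CPM, with an edgeR log2 fold change of 0.90 (SE 0.683) and an adjusted p of 0.631. The share of Rn45s, given above, differed between the same libraries, and its part in these values was not tested.

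Over the whole list of signalling genes, HFD IP against CFD IP gave 5 genes lower, beside 4.82% of all genes, and 0 higher at an unadjusted p under 0.05, with a median log2 fold change of -0.57 beside 0.03 over all genes tested. The most abundant genes of the list, Gnb1 and Rac1, were not among these 5, with log2 fold changes of 0.23 (SE 0.330) and 0.24 (SE 0.281). Rac2 was among these 5, and its level in CFD IP rested on animal 555. In CFD IP against CFD input 3 were higher, beside 5.94% of all genes, and 0 lower at that threshold, with a median of 0.20 beside -0.01 over all genes.

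Of 7 proteases that act on these chemokines 3 were tested, and 0 were called by edgeR or DESeq2 in any comparison, with 0 at an unadjusted p under 0.05. Adam10 and Adam17, which shed Cx3cl1 and Cxcl16, had mean levels of 29.5 ± 22.9 and 7.52 ± 1.88 CPM in CFD IP and of 58.2 ± 17.1 and 18.3 ± 19.6 CPM in HFD IP (SD, n = 3 each). Both overlapped between diets, and 71.2% of the Adam17 level in HFD IP came from animal 517.

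**Figure D5:**
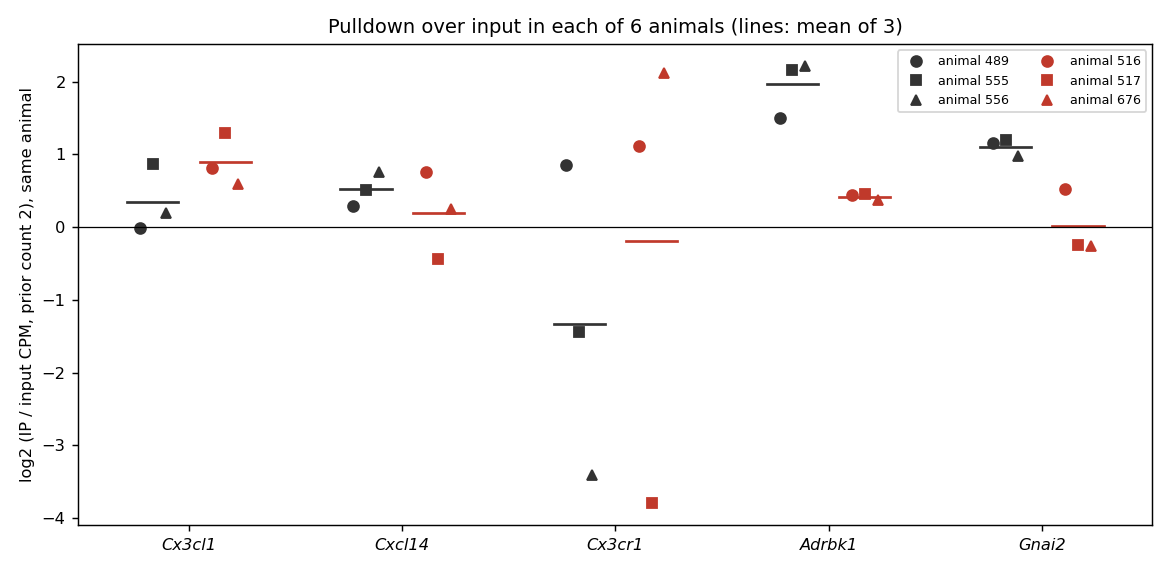
Log2 ratio of IP CPM over input CPM in each of 6 animals for 2 abundant members and 3 genes of their pathway, with lines for the mean of 3 animals per diet. Cx3cl1 lies above 0 in 5 animals, at means of 0.35 in CFD and 0.90 in HFD, and Adrbk1 lies above 0 in all 6.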

How the data were processed

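RNA of anti-HA pulldowns and inputs from 6 mice was sequenced as paired-end libraries, and the labels gave diet, fraction and animal. The authors aligned reads to mm10 with STAR, and HTSeq is among the tools in the submitters' processing notes. The deposited counts are whole reads per gene and library, not normalized. The deposited FPKM were used only to derive 1 length per gene, and the deposited normalized signal was not used. Columns of the authors' own fold changes and p-values were not used.

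Counts were tested with edgeR 4.0.16 (R 4.3.3; TMM scaling, filterByExpr with a minimum count of 10 and a total of 15, glmQLFit and glmQLFTest on 4 group means of all 12 libraries). Benjamini-Hochberg adjustment ran over 14354 genes, and calls were made at an adjusted p under 0.1. CPM use TMM-scaled library sizes, RPKM divide these by gene length, intervals are 95%, and a floor of 3 counts was used for 0. The fit was tested on simulated data, with a pass condition set only at a spread well below that of these data. The common biological coefficient of variation of these data was 101%. The power of the tests at that spread is not given here. Animals are the replicates. IP and input of an animal came from 1 mouse, which is where the pairing comes from, and their deviations from group means correlated at 0.00641 to 0.19.

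The members, the lists, the tests and the alternatives were chosen with earlier results of these data known. The text names all members, from each list the genes called, the 2 highest by mean RPKM and the 2 with the smallest p for HFD IP against CFD IP, and the 3 genes most alike to each member. Ackr3, Cxcr6, Gnai3, Grk6, Ptk2b, Rac2, Rgs1, ligands and receptors at 0, and genes overlapping a member were named outside this rule after their values were seen. Alternatives were RLE scaling, no filter, DESeq2 1.42.0, no Rn45s and Lars2, an adjusted p under 0.05, each animal left out, and a replicate block (fixed, or random with limma 3.58.1 between diets).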

Additional observations from a re-analysis of the deposited data

How the results depend on the processing

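No member other than Cxcl5, whose calls are not read since the study selected it on these samples, was called under any alternative run. With all animals kept, 158 of 160 fold changes held their direction. The exceptions came with the replicate block for HFD IP against CFD IP, where the log2 fold change was -0.0735 for Cxcl16 and -0.155 for Cxcr4. The 160 include the setting with an adjusted p under 0.05, which repeats the 27 fold changes of the main fit and could not turn any. The block, which uses the pairing of IP and input, changed no call among members. Leaving out 1 animal turned the direction in 13 of 162 fits. The 162 include comparisons within 1 diet fitted without an animal of the other diet, which moved little and could hardly turn. Cxcr4 in CFD IP against CFD input, at 0.0 without animal 489, was counted as held. With 1 animal left out, the log2 fold changes ranged, for HFD IP against CFD IP, from -0.0539 to 0.454 for Cx3cl1, from -5.44 to 6.43 for Cxcl16 and from -5.57 to 6.43 for Cxcr4. For CFD IP against CFD input they ranged from -1.80 to 0.59 for Cxcl12 and from -6.56 to 0.60 for Cxcl16, and for HFD IP against HFD input from -1.77 to 0.39 for Cxcl12, from -0.0549 to 0.527 for Cxcl14 and from -7.87 to 1.42 for Cxcr4. For HFD input against CFD input Cxcl5 ranged from -1.67 to 2.11. Cxcl5 passed the count filter mainly through the HFD pulldown, so neither this range nor its part in the 160 and 162 values is read. For the interaction Cxcl12 ranged from -1.35 to 1.08 and Cxcl16 from -6.86 to 4.37. In the pathway lists 1 call was made, and the number was 0 at an adjusted p under 0.05, 3 with no filter, 6 with DESeq2, 2 with the replicate block, and 0 to 1 with 1 animal left out (0 without 489, 555 or 556). Calls over all genes moved as well, for CFD IP against CFD input from 27 to 312 with no filter, 811 with DESeq2 and 139 with the block, and for HFD IP against CFD IP from 8 to 219 with no filter and 729 with DESeq2, with 5 under the block. The causes were not tested. The number of cases in which 1 library held over 90% of a group stayed at 6 of 22 with RLE scaling and without Rn45s and Lars2. These cases include those of Cxcl5, which are not read. Depth limits Cxcr2, Cxcr4, Cxcl16 and Cxcl5, which were at or under 3 counts in 5 or more libraries.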
